A study of Drosophila melanogaster with 6 samples.

Results

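The genes of the cytosolic ribosomal proteins were examined in testes of Drosophila melanogaster that carry a knockout of Zeus and in control testes. Members were taken by symbol, as genes whose name begins with RpL, RpS, RpLP or RpSP followed by a digit. The 10 genes RpL22, RpL22-like, RpS5a, RpS5b, RpS19a, RpS19b, RpS10a, RpS10b, RpS28a and RpS28b were left out of the 91 genes with such a name. The remaining 81 genes, of 11491 in the deposited table, comprised 51 genes of the large subunit and 30 of the small subunit. The rule did not use the expression values.

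Poly(A) RNA came from whole testis of adult flies, in biological triplicate for each of 2 groups. The 3 Zeus KO libraries came from lines labelled Zeus-KO mutant, in which CRISPR-Cas9 left small frameshift deletions in the coding sequence of Zeus, and the 3 control libraries from the injected line without such a deletion, which the labels call WT. Both groups share the strain BDSC #25710 and were kept at the same temperature and light cycle, each replicate having been stored in PBS before extraction. How many Zeus KO lines the 3 libraries stand for, and the age of the males, are not given in the sources used here. Zeus is a retroposed copy of Caf40, a subunit of the CCR4-NOT complex that shortens poly(A) tails and regulates mRNA.

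Ribosomal proteins coat the ribosomal RNA of the large subunit, which joins amino acids, and of the small subunit, which reads the mRNA. They are needed in nearly equal numbers, so their genes are usually expressed together and strongly in every cell. In flies, the loss of a copy of many of these genes gives the Minute phenotype, with slow growth and thin bristles. Testes are known for duplicate ribosomal protein genes that are used in the germline, and the rule left the best known of these pairs aside.

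The deposited table gives a mean per group only, in normalized reads, that is reads divided by a size factor for the depth of each library. These means, printed to 15 digits, were solved for whole reads in each library, which gave a single answer in both groups for all 81 ribosomal protein genes and for 11417 of the 11491 genes. The genes without one were nearly all those with a mean above 20000, and solved genes held 82.0% of the normalized reads in Zeus KO and 81.2% in control. The libraries are called A, B and C in order of falling size factor within each group. They held between 9013964 and 13442761 reads of solved genes, and between 12533272 and 18846182 reads had been sequenced per library.

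The group labels could be checked only weakly. Zeus, listed as Rcd-1r, had 269, 269 and 328 normalized reads in Zeus KO libraries A, B and C, against 319, 338 and 380 in control libraries A, B and C. A small deletion leaves most of the transcript in place, so a level of this kind neither shows nor denies the edit. The test across all genes gave Zeus a log2 fold change of -0.26 ± 0.13 (SE; limma, adjusted p = 0.314). Its parent gene Caf40, listed as Rcd-1, had 2588, 2984 and 2873 normalized reads in Zeus KO, against 3030, 3126 and 2644 in control, with overlapping groups (log2 fold change -0.06 ± 0.10 SE; limma, adjusted p = 0.800).

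Most ribosomal protein genes were among the strongly expressed genes of the testis. Per kb of exon, 68 of the 81 genes lay in the top 5% of 11402 genes ranked by their control level, and 74 in the top 10%. The median member stood at rank 283, the highest, RpL41, at rank 30 and the lowest, RpLP0-like, at rank 4883. Together the 81 genes took 2.82% of all normalized reads in Zeus KO and 2.81% in control. The median level was 5535 normalized reads per kb in Zeus KO and 5907 in control, whereas the median of all ranked genes in control was 169.

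The extremes of level lay further apart in the large subunit, whereas the order of the subunits by quartiles depended on the group and the length used. In Zeus KO the large subunit genes had a median of 5191 and the small subunit genes of 6052 normalized reads per kb. In control the medians were 5436 for the large subunit, with quartiles of 4397 and 7165, and 6495 for the small subunit, with quartiles of 3967 and 7860. The whole control range ran from 232 to 34331 in the large subunit and from 287 to 11562 in the small one, while the upper quartile was 1.63 times the lower in the large subunit and 1.98 times in the small subunit. In Zeus KO these ratios of the quartiles were 1.68 in the large and 1.69 in the small subunit. In control they were 1.47 and 1.49 per kb of coding sequence. Without length correction the control order was turned, at 1.85 in the large and 1.52 in the small subunit. Over all 81 genes the upper quartile in control was 1.69 times the lower. The lengths are those of the merged exons of the annotation, and per kb of coding sequence this ratio was 1.5.

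RpL41, which encodes a very short basic peptide of the large subunit, had the highest level per kb. It averaged 33131 ± 10477 normalized reads per kb in Zeus KO and 34331 ± 5942 in control (SD, n = 3 each). RpLP2, an acidic protein of the stalk that recruits elongation factors, averaged 11665 ± 2783 in Zeus KO and 13521 ± 2356 in control. RpL23 and RpL27A followed, at 11666 ± 1908 and 11539 ± 2161 in Zeus KO and at 12975 ± 2626 and 11164 ± 1426 in control. Among the small subunit genes the order began with RpS27A, which encodes a fusion of ubiquitin with a ribosomal protein, at 10700 ± 2152 in Zeus KO and 11562 ± 1069 in control. RpS18 and RpS12 were also among the 4 highest. In all these genes the groups overlapped.

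The lowest genes all belonged to a protein with 2 genes or were named -like. The 4 lowest of the large subunit were RpLP0-like, RpL24-like, RpL37b and RpL34a, and the 4 lowest of the small subunit RpS15Ab, RpS28-like, RpS14b and RpS15Aa. RpLP0-like and RpL24-like are relatives of MRTO4 and RSL24D1, which in human cells act in the assembly of the large subunit and leave it before translation. RpLP0-like averaged 223 ± 48.8 normalized reads per kb in Zeus KO and 232 ± 36.3 in control, and RpS15Ab, an intronless copy, 266 ± 73.8 in Zeus KO and 287 ± 44.4 in control (SD, n = 3 each). The 13 genes that are named -like or belong to a protein with 2 genes in the list had a median of 1454 in Zeus KO and 1363 in control. The other 68 genes had a median of 6052 in Zeus KO and 6425 in control, and the lowest of them in control was RpL38 at 1865.

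The order within a subunit was mostly not resolved by 3 libraries. Of the 50 pairs of neighbours in the order of large subunit genes by control level, 4 were further apart than the sum of their SDs, namely RpL41 over RpLP2, RpL4 over RpLP0, RpL34b over RpL5 and RpL24-like over RpLP0-like. Of the 29 such pairs in the small subunit the same held for 3, which were RpS4 over RpS27, RpS15Aa over RpS14b and RpS28-like over RpS15Ab.

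**Figure D1:**
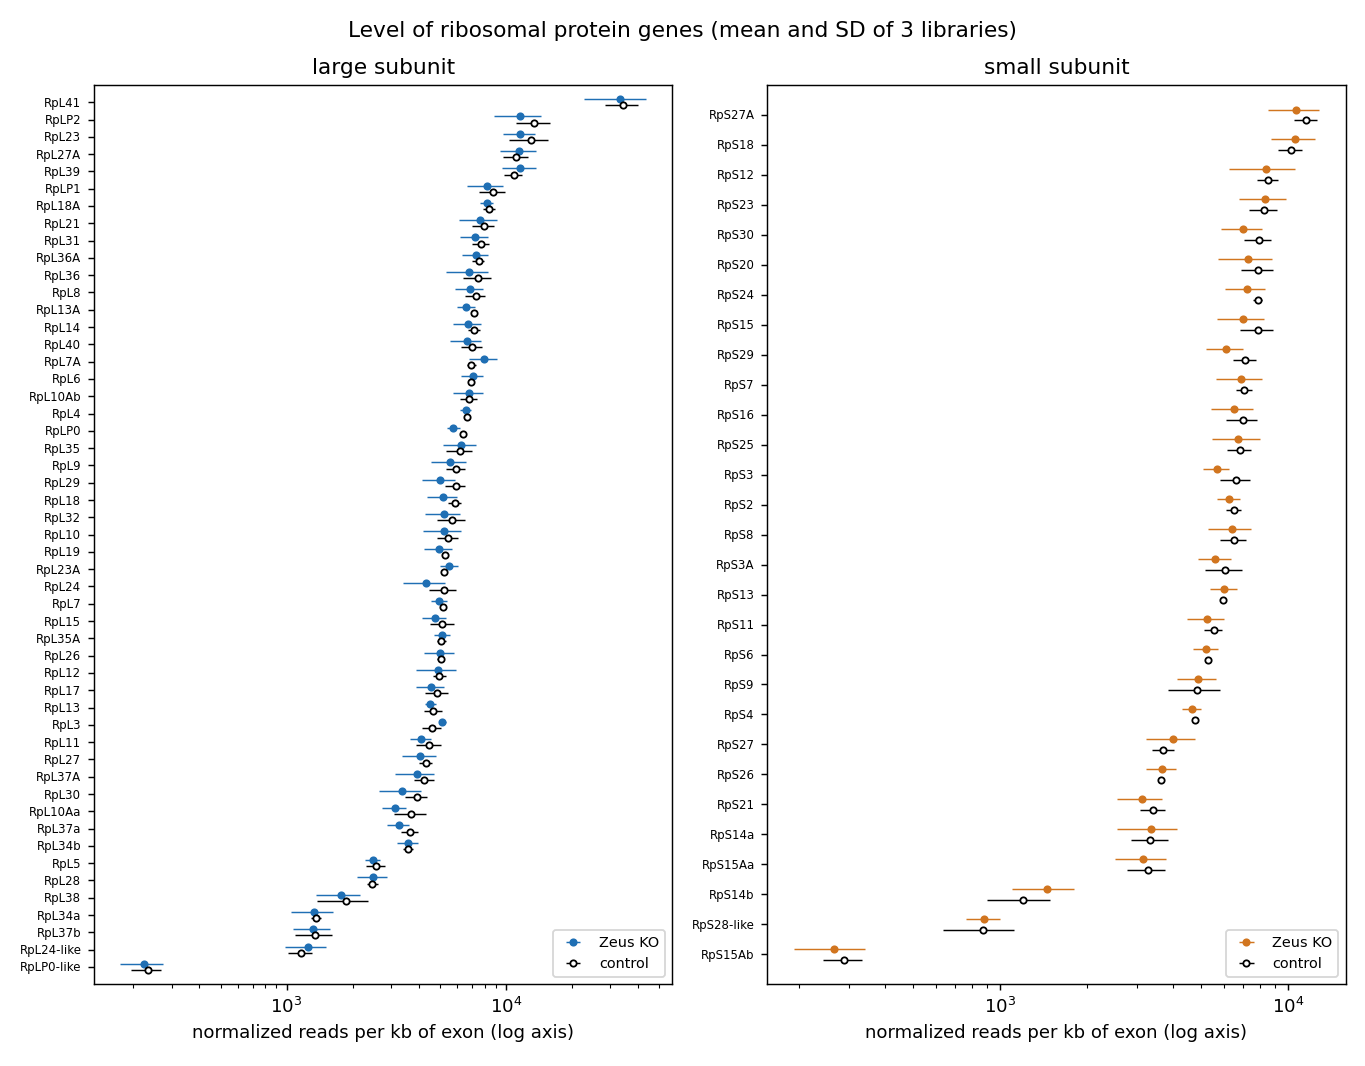
Level of 80 of the 81 ribosomal protein genes in normalized reads per kb of exon on a log axis, with 51 large subunit genes on the left and 29 small subunit genes on the right, ordered by control level. Filled points are Zeus KO and open points control, as means with the SD of 3 libraries. RpL41 stands alone at the top, at 33131 in Zeus KO and 34331 in control, and the lowest genes are RpLP0-like and RpS15Ab.

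The comparison of Zeus KO with control asked whether the loss of Zeus changes the testis transcriptome, and no ribosomal protein gene passed the test. With limma on log2(normalized reads + 1), 0 of 81 genes reached an adjusted p below 0.05 together with a change of 1.5-fold or more, while 3.97% of all 11403 genes tested were called. At an unadjusted p under 0.05 the count was also 0 of 81, against 18.9% of all genes, and edgeR called 0 of the 81 as well. The smallest adjusted p of a member was 0.325, that of RpS3. In 80 of the 81 genes the fold change widened by 2 standard errors stayed under 1.5, so that for them a change of that size lies outside the interval of 2 standard errors. In RNA from whole testis, fewer cells of a type and less RNA per cell cannot be told apart.

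The ratio of the group means was close to 1 in most genes. The median ratio of Zeus KO over control was 0.961, with quartiles of 0.922 and 0.997 and a range of 0.832 to 1.21. As a share of all normalized reads, however, the members' sum was not lower, at 2.82% in Zeus KO and 2.81% in control. On the log2 scale the median was -0.06 over all 81 genes, -0.06 in the large subunit and -0.05 in the small subunit, while the median of all genes with a mean of at least 1 was 0.00. The interquartile range was 0.0995 in the large subunit and 0.123 in the small subunit, against 0.320 over all those genes. The ratio was below 1 in 40 of 51 large subunit genes and in 21 of 30 small subunit genes. The 1713 genes of the table with a mean of at least 2000, most members included, had a median log2 ratio of -0.06 too, with an interquartile range of 0.211 and a ratio below 1 in 1140 (66.5%).

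The median log2 ratio over all members stayed negative with any 1 library left out, but its size depended on single libraries. Without Zeus KO library A the median log2 ratio was -0.21, without control library A it was -0.14, without control library B or C it was -0.02 or -0.04, and without Zeus KO library B or C it was -0.01. In the small subunit it was 0.01 without Zeus KO library B or C. By limma the fold change was negative in 62 of 81 genes (76.5%) and with quantile normalization in 41 (50.6%). After an adjustment for gene length, described with the length classes, it was negative in 28 (34.6%).

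The 4 lowest ratios belonged to RpL24, RpL10Aa, RpL29 and RpS3. RpL24 (FBgn0032518), which forms part of a bridge between the subunits, had 6847, 4868 and 4736 normalized reads in Zeus KO libraries A, B and C, against 5527, 7250 and 6993 in control libraries A, B and C. Zeus KO libraries B and C lay below all control libraries and Zeus KO library A between control libraries A and C, so the groups overlapped. The log2 fold change was -0.28 ± 0.15 (SE; limma, adjusted p = 0.350). The gene lies on chromosome 2L from 13393687 to 13395131 on the minus strand and shares exon bases with CG7099 on the other strand.

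RpL10Aa (FBgn0038281) encodes 1 of 2 forms of a protein of the flexible stalk beside the exit site of tRNA. It had 2766, 2164 and 2404 normalized reads in Zeus KO libraries A, B and C, against 2336, 3216 and 3178 in control libraries A, B and C, and control library A was low among the controls. Its log2 fold change was -0.24 ± 0.14 (SE; limma, adjusted p = 0.368), and -0.10 after an adjustment for gene length that is described with the length classes. RpL29 (FBgn0016726), a small basic protein of the large subunit, had 2330, 1701 and 1827 in Zeus KO, against 2045, 2528 and 2320 in control, with Zeus KO library A again the high one of its group. Its log2 fold change was -0.24 ± 0.13 (SE; limma, adjusted p = 0.339), and -0.05 after the same adjustment.

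RpS3 (FBgn0002622), a protein at the mRNA entry channel that is also known from DNA repair, had 7186, 6007 and 6034 normalized reads in Zeus KO, against 6610, 7408 and 8411 in control. The pattern was that of RpL24, with Zeus KO library A above a control library and the other Zeus KO libraries below all of them. The log2 fold change was -0.22 ± 0.11 (SE; limma, adjusted p = 0.325).

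The 4 highest ratios belonged to RpS14b, RpL7A, RpL3 and RpS27. RpS14b (FBgn0004404), a protein of the platform of the small subunit, had 1108, 735 and 762 normalized reads in Zeus KO libraries A, B and C, against 518, 854 and 777 in control libraries A, B and C. Control library A was the lowest of the 6 and Zeus KO library A the highest, and Zeus KO libraries B and C lay below control libraries B and C. The log2 fold change was 0.28 ± 0.20 (SE; limma, adjusted p = 0.480), and without control library A it was 0.07. After the gene length adjustment it was 0.42. RpS14b lies on chromosome X from 7934898 to 7935792, next to its near-identical copy RpS14a from 7933742 to 7934677, and the division of reads between such copies is uncertain.

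RpL7A (FBgn0014026), a large subunit protein whose gene hosts a snoRNA gene, had 12169, 9438 and 9654 normalized reads in Zeus KO, against 8709, 9198 and 9573 in control. Only control library C reached into the range of Zeus KO. Its log2 fold change was 0.18 ± 0.11 (SE; limma, adjusted p = 0.425), and without Zeus KO library A it was 0.06.

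RpL3 (FBgn0020910), which reaches towards the centre where peptide bonds form, was the single member whose groups did not overlap. It had 11530, 11818 and 10995 normalized reads in Zeus KO, against 10892, 9151 and 10807 in control. The gap between the lowest Zeus KO and the highest control library was small, and control library B stood apart below the rest. That 1 of 81 genes did not overlap compares with 23.5% of all genes tested. The log2 fold change was 0.16 ± 0.10 (SE; limma, adjusted p = 0.418), and without control library B it was 0.08. The gene, on chromosome 3R from 11221894 to 11225173, is among the longest members, with 2231 exon bases, and shares exon bases with the antisense gene asRNA:CR31144.

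RpS27 (FBgn0039300), a small subunit protein with a zinc finger, had 3547, 2617 and 2553 normalized reads in Zeus KO, against 2450, 2900 and 2736 in control. Only Zeus KO library A was above the controls. The log2 fold change of 0.10 ± 0.13 (SE; limma, adjusted p = 0.742) became -0.06 without that library and 0.23 after the gene length adjustment.

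The members moved together from library to library. The deviation of each library from a gene's own mean over the 6 libraries, on the log2 scale, had a median of 0.21 in Zeus KO library A, and all 81 genes were above their mean there. In Zeus KO libraries B and C the medians were -0.14 and -0.17, with 1 and 2 genes above their mean. In control libraries A, B and C the medians were -0.10, 0.11 and 0.08, with 14, 67 and 66 genes above their mean. Zeus KO library A exceeded both other Zeus KO libraries in 80 of the 81 genes, and control library A lay below both other control libraries in 69.

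The members' summed share was likewise highest in Zeus KO library A and lowest in Zeus KO library C. They took 4.04%, 3.16% and 3.12% of the reads of solved genes in Zeus KO libraries A, B and C, against 3.20%, 3.56% and 3.63% in control libraries A, B and C. The difference of the group means was smaller than the range over the Zeus KO libraries in 80 of 81 genes, and smaller than the range over the control libraries in 75.

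**Figure D2:**
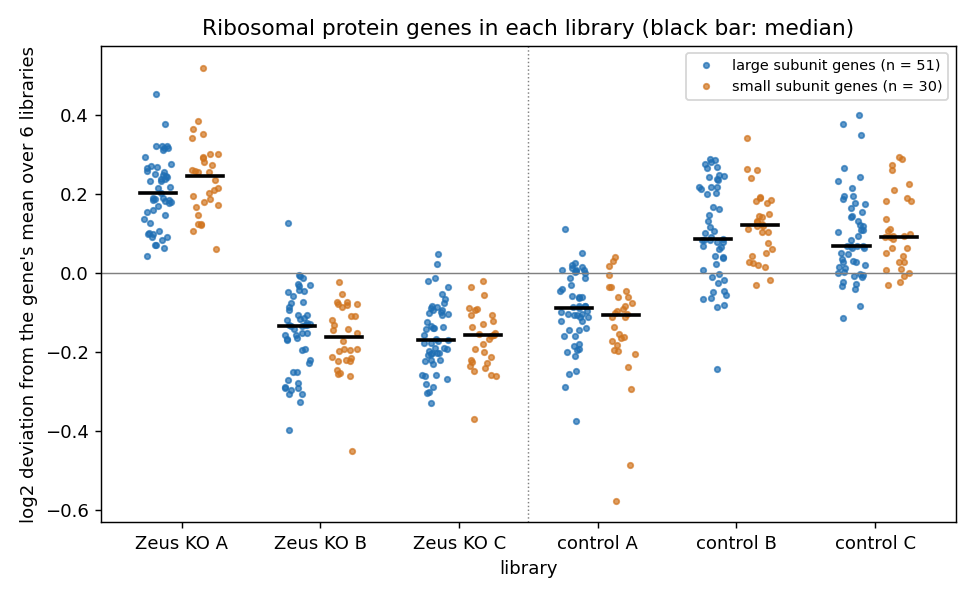
Log2 deviation of each library from the gene's own mean over the 6 libraries, for 51 large subunit genes (blue) and 30 small subunit genes (orange), with medians as black bars. Zeus KO library A lies above 0 in all 81 genes, Zeus KO libraries B and C and control library A lie mostly below, and control libraries B and C mostly above.

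Both subunits followed this pattern. The large subunit medians were 0.20, -0.13 and -0.17 in Zeus KO libraries A, B and C, against -0.09, 0.09 and 0.07 in control libraries A, B and C. The small subunit medians were 0.25, -0.16 and -0.16 in Zeus KO, against -0.11, 0.12 and 0.09 in control. The summed reads of the large subunit genes were 1.72, 1.77 and 1.76 times those of the small subunit genes in Zeus KO, against 1.77, 1.72 and 1.72 times in control. The mean of this balance, 1.75 ± 0.0281 in Zeus KO and 1.74 ± 0.0267 in control (SD, n = 3 each), differed by less than the SD in either group (2-sided exact permutation test, p = 0.5, and with 3 libraries a group p cannot fall below 0.1).

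The spread between the Zeus KO libraries was wide for genes of this level. The members' median coefficient of variation was 16.2% over the Zeus KO libraries and 10.05% over the control libraries, and it was higher in Zeus KO in 69 of 81 genes. For the 1566 other genes with a mean of at least 2000 it was 7.11% in Zeus KO and 8.35% in control. In the 518 of these with exons of up to 1500 bases it was 8.65% in Zeus KO and 11.4% in control. RpL41 had the widest spread of all members in Zeus KO, at 31.6%, with 14473, 8636 and 8697 normalized reads.

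The fit was repeated without Zeus KO library A. Without it, the fold change was negative in 77 of 81 genes, and 25 genes had an unadjusted p under 0.05, all lower in Zeus KO, against 12.3% of all genes in that direction. At an adjusted p under 0.05 the count was 2 of 81, RpL24 among them (limma, adjusted p = 0.0472), against 6.04% of all genes. Neither passed the limit on the fold change, and that of RpL24 was -0.45 on the log2 scale.

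Other genes showed deviations of the same sign according to their length. Of the other genes with a mean of at least 100, those with exons of up to 500 bases had median deviations of 0.17, -0.23 and -0.20 in Zeus KO libraries A, B and C, against -0.11, 0.31 and 0.13 in control libraries A, B and C. In those with exons over 5000 bases every sign was turned, with -0.17, 0.17 and 0.18 in Zeus KO, against 0.16, -0.28 and -0.06 in control. Most members are short, with a median of 865 exon bases and quartiles of 635 and 1167, and 78 of them fall in the 4 shortest of 8 length classes. Within these classes the members' deviation in Zeus KO library A fell with length, from 0.26 in the 30 genes of over 500 and up to 800 bases to 0.17 in the 27 genes of over 1000 and up to 1500 bases.

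The members were set beside other genes of their length. In the class of over 1000 and up to 1500 bases the median deviation in that library was 0.17 for members and 0.06 for other genes, while in control library B it was 0.08 for members and 0.11 for other genes. After the median of the other genes of the same length class had been subtracted in each library, an adjustment chosen after the data were seen, the members' medians were 0.13, -0.03 and -0.03 in Zeus KO libraries A, B and C, against -0.01, -0.05 and 0.02 in control libraries A, B and C. The median log2 ratio was then 0.02, the fold change was negative in 28 of 81 genes (34.6%), and 0 of 81 genes were called. With the adjusted p alone, at 0.05, 3 of 81 members passed, all higher in Zeus KO, against 11.1% of all genes. These were RpL39, RpS14b and RpS27, with log2 fold changes of 0.28, 0.42 and 0.23 (limma, adjusted p = 0.0118, 0.0121 and 0.0447).

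**Figure D3:**
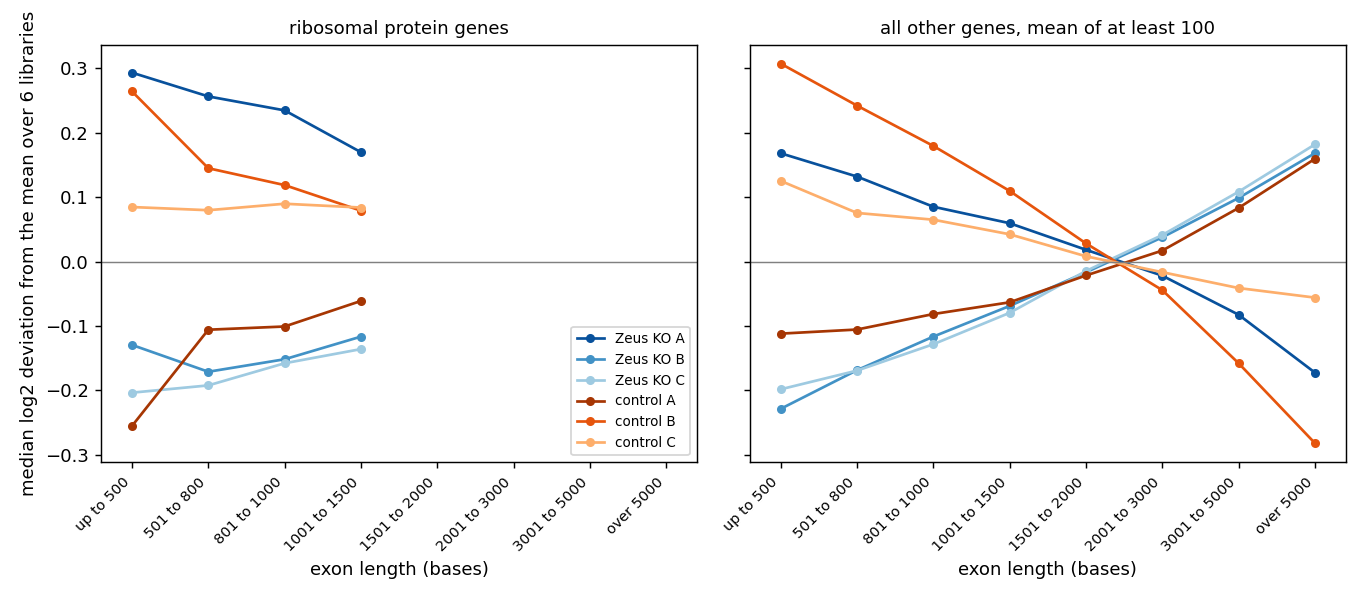
Median log2 deviation of each library by exon length class, for ribosomal protein genes (left, classes with at least 3 members) and all other genes with a mean of at least 100 (right). Blue lines are Zeus KO libraries and orange lines control libraries. The lines of other genes cross near 2000 bases, and the members keep the signs of the short classes, with Zeus KO library A the highest line.

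Proteins encoded by 2 genes gave a measure within a library that depth does not touch. The deviations by length class can still enter it where the 2 genes differ in length. RpL24-like has 773 exon bases and RpL24 1265, and this measure was not adjusted for gene length. Other genes of over 500 and up to 800 bases had a median log2 difference, Zeus KO minus control, of -0.14. For those of over 1000 and up to 1500 bases it was -0.06. The log2 fold changes of RpL24-like and RpL24 were 0.09 and -0.28 by limma, and 0.23 and -0.22 after the gene length adjustment. The share of the lower gene in the summed level per kb of its pair was computed for 5 such proteins and for RpLP0-like and RpL24-like beside RpLP0 and RpL24, 7 pairs in all, a measure added after the levels had been seen. RpL24-like made up 22.2%, 22.8% and 22.1% in Zeus KO libraries A, B and C, against 18.7%, 18.2% and 17.9% in control libraries A, B and C. All Zeus KO libraries lay above all control libraries, with a difference of 4.09 percentage points between means of 22.4% ± 0.341 in Zeus KO and 18.3% ± 0.390 in control (SD, n = 3 each). This gave the smallest p that the design allows (2-sided exact permutation test, p = 0.1, adjusted over the 7 pairs p = 0.35). With any 1 library left out the difference lay between 3.90 and 4.29 percentage points, and per kb of coding length it was 2.52. RpL24 is also the member with the lowest ratio.

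RpS14b made up 30.4%, 30.3% and 30.1% of its pair with RpS14a in Zeus KO, against 23.7%, 27.5% and 27.4% in control. The groups did not overlap here either, at the same p of 0.1 (2-sided exact permutation test, adjusted p = 0.35). The means were 30.3% ± 0.134 in Zeus KO and 26.2% ± 2.20 in control (SD, n = 3 each). Control library A was the lowest, and without it the means differed by 2.81 percentage points. RpL10Aa made up 31.5% ± 1.62 of its pair with RpL10Ab in Zeus KO and 35.3% ± 3.24 in control, with overlapping groups (SD, n = 3 each; 2-sided exact permutation test, p = 0.2).

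In the other pairs the groups overlapped as well. RpL37b, paired with RpL37a, which is a different gene from RpL37A, made up 28.9% ± 1.56 in Zeus KO and 26.9% ± 2.24 in control. RpL34a had 27.1% ± 2.64 of its pair in Zeus KO and 27.5% ± 0.757 in control, and RpS15Ab 7.75% ± 0.810 in Zeus KO and 8.10% ± 0.585 in control. RpLP0-like had 3.71% ± 0.641 in Zeus KO and 3.51% ± 0.456 in control (SD, n = 3 each; 2-sided exact permutation tests, adjusted p between 0.7 and 0.9).

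Ribosomal protein genes are known as hosts of snoRNA genes, whose products guide the modification of ribosomal RNA. In the annotation 26 of the 81 members held 58 snoRNA genes. The hosts had a median log2 ratio of -0.04 and the other 55 genes of -0.06, and the deviations in Zeus KO library A were 0.18 and 0.23. By chromosome the medians ran from -0.08 for the 20 genes on 2R to -0.02 for the 9 genes on the X chromosome, with -0.11 for RpS3A, the single gene on chromosome 4. Across the members, which share libraries and are not replicates, the log2 ratio had a Spearman correlation of 0.10 with exon length and of 0.00 with control level. For 28 members exon bases are shared with another gene, and whether the counting used strand is not given in the sources used here.

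Genes around the ribosome were taken from lists. Of ribosomal proteins whose symbols the rule does not match, sta and Rack1 were measured, and both lay within the spread, with log2 fold changes of -0.03 ± 0.10 and -0.07 ± 0.10 (SE; limma, adjusted p = 0.919 and 0.726). Of 33 chaperones and assembly factors of ribosomes, 26 had a positive and 7 a negative log2 fold change, with a median of 0.19. Of these, 7 had an unadjusted p under 0.05, all higher in Zeus KO, against 18.9% of all genes in either direction, and 0 were called. Of 5 elongation factors tested 0 were called and 1 had an unadjusted p under 0.05. Of 13 regulators of ribosomal protein and ribosome genes, 1 was called, Thor, the 4E-BP that holds back cap-dependent translation. Thor had 881, 880 and 902 normalized reads in Zeus KO libraries A, B and C, against 1409, 1433 and 1342 in control libraries A, B and C. All Zeus KO libraries were below all control libraries, and the log2 fold change was -0.65 ± 0.09 (SE; limma, adjusted p = 0.00118).

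Markers on the accessory gland, gut, muscle and fat body lists were called, in both directions, and no marker of the germline or of cyst and hub cells was. The markers of early germline, spermatocytes, spermatids and cyst and hub cells were measured, with 0 genes called of 9, 13, 11 and 9 tested and 0, 1, 2 and 0 at an unadjusted p under 0.05. Of the spermatid markers 9 of 11 had a negative log2 fold change, with a median of -0.20, and scpr-A, at -0.49, reached an adjusted p of 0.0390 (limma) but not the fold limit. Summed spermatid markers ranged from 96120 to 131449 normalized reads in Zeus KO and from 103051 to 152692 in control. Their median deviations were 0.25, -0.25 and -0.23 in Zeus KO libraries A, B and C, against -0.17, 0.41 and 0.03 in control. These have the signs of the members' medians in each library. In Zeus KO library A the early germline, spermatocyte and cyst and hub lists had medians of -0.07, -0.0020 and -0.12. Summed accessory gland markers ranged from 28910 to 41578 in Zeus KO and from 47962 to 59655 in control, with 3 of 7 called, all lower, and gut markers from 7812 to 9614 in Zeus KO and from 18763 to 20399 in control, with 6 of 9 called lower and 1 higher. Of 12 muscle markers 11 had a positive log2 fold change and 1 was called, higher, and of 4 fat body markers 1 was called higher and 1 lower. At an unadjusted p under 0.05 were 7 of 7 accessory gland markers, all lower, and 8 of 12 muscle markers, all higher. The same held for 8 of 9 gut markers, 7 lower and 1 higher, and 3 of 4 fat body markers, 2 lower and 1 higher. Of all genes tested, 3.97% were called and 18.9% had such a p. The part of these cell types in the levels of ribosomal protein genes was not tested.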

How the data were processed

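The authors mapped reads to dm6 with STAR, assigned them to genes with featureCounts and tested groups with DESeq2, edgeR and limma, whose versions, annotation and strand setting are not given in the sources used here. The deposited signal is a gene's mean over the libraries of a group of reads divided by size factors, without length correction. Columns of the authors' own comparison (fold changes with errors, p-values, q-values and calls) were not used. The counts of sequenced reads, and the percent that remained once duplicates were removed (31.4% to 38.5%), come from the authors' deposited FastQC summary, whose names match no sample label.

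Group means were solved for whole reads per library. Of 22847 means searched (up to 20000), 22845 had 1 solution and 2 several, and 22818 were given back within 2.5 units of the 15th digit. In a simulation of 800 means, 785 had 1 solution, of which 0 were wrong. The planned test was kept: limma 3.58.1 (R 4.3.3), moderated with a trend, on log2(normalized reads + 1), which understates changes of low genes. It covered 11403 genes whose mean was 1 or more, with Benjamini-Hochberg adjustment, and calls needed an adjusted p below 0.05 with a 1.5-fold change. In simulated data for Zeus KO against control, 199 of 200 changed genes were called, with 4 false calls among 11400 genes. These calls also needed a 1.5-fold change, and the recovery of smaller changes, like those of the members, was not tested. Alternatives were edgeR 4.0.16 (quasi-likelihood, on solved reads), pseudocounts, filters, normalizations and left-out libraries. P-values measure the spread between the triplicates.

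Lengths, positions and snoRNA genes came from Ensembl release 115 (BDGP6.54, dm6 coordinates), in which 80 members matched by ID and 1, RpS12, by symbol. Named genes were the 4 highest and lowest by control level per kb in each subunit and by ratio, called and non-overlapping members, -like genes, both genes of 2-gene proteins, and called genes of the other lists. RpL38, RpL39, RpS3A, scpr-A and the neighbours in the order of levels were named after their values were seen. The values of 1 member are not reported here, though it is counted in every summary. Members and lists were chosen with earlier results of these data known.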

Additional observations from a re-analysis of the deposited data

How the results depend on the processing

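No ribosomal protein gene was called under any of the 16 alternatives run, including each left-out library, edgeR, TMM factors, quantile normalization and the gene length adjustment. At an adjusted p alone, 3 members passed after the gene length adjustment, RpL39, RpS14b and RpS27, all higher in Zeus KO. That adjustment changed the log2 fold changes of RpL10Aa and RpL29 to -0.10 and -0.05. Of all genes, 453 were called, and 301 to 557 with a library left out. The median log2 ratio ranged with a library left out from -0.21 to -0.01 over all members, from -0.21 to -0.02 in the large subunit and from -0.20 to 0.01 in the small subunit. With the gene length adjustment it was 0.02, 0.03 and 0.02. Each of these moved from its value with all libraries by less than the SD between libraries (0.17, 0.16 and 0.19). That SD is larger than the median log2 ratio itself, so this does not show that the ratio is stable. The ratio of the upper to the lower quartile of the control level, 1.69, was 1.5 per kb of coding length and 1.55 without members that have a second gene. With a library left out the log2 fold change of RpS27 ranged from -0.057 to 0.18 and that of Caf40 (Rcd-1) from -0.13 to 0.0011, both turning sign without Zeus KO library A, and Thor was -0.51 after the gene length adjustment, under the fold limit. Of the 19 other named members 16 changed the sign of an uncalled fold change under at least 1 alternative. The difference in the share of RpL24-like in its pair was 2.52 percentage points per kb of coding length, and that of RpS14b ranged from 2.81 to 4.75 with a library left out. No paired analysis was possible because the solved libraries carry no replicate numbers.

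With 3 libraries per group and values solved from means, the typical standard error of a member was 0.13 on the log2 scale. RpS3, the member with the smallest adjusted p, had -0.22 ± 0.11 (SE; limma, adjusted p = 0.325). In the planned fit, changes of that size or smaller could therefore be missed, depending on the standard error of the gene. The intervals cover the spread between these libraries. Genes above a mean of 20000 were not solved.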
